A study of Mus musculus with 8 samples.

Results

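Class I odorant receptor genes, the fish-like branch of the odorant receptor family, were followed across polysome fractions of the mouse main olfactory epithelium. Members were the rows of the expression table numbered Olfr543 to Olfr692, together with Olfr33, Olfr64 to Olfr69 and Olfr78, without pseudogene symbols. This gave 124 members of 21765 gene symbols. The other 966 Olfr rows, class II receptors by this numbering, served as the comparator. Olfr243 among them is 97.5% identical to the member Olfr628 in its coding sequence, so the numbering may not separate the classes fully. All 124 members lay on chromosome 7 of the mouse genome (GRCm38, which is mm10), within 2.893 Mb between positions 102476579 and 105369355, in GENCODE M21.

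RNA was sequenced from polysomes of mice in which Mex3a, which encodes an RNA-binding protein, carried floxed alleles. Animals called wild type (WT) carried floxed Mex3a on both alleles or on 1 allele and no Cre, and conditional knockouts (cKO) carried floxed Mex3a on both alleles and a Cre allele. Every animal therefore had at least 1 floxed allele. Tissue was exposed to 100 µg/mL cycloheximide, which halts elongating ribosomes, and its lysate was spun through sucrose into about 42 fractions of 350 µL. Fractions 27 to 34 were pooled as early (lighter) polysomes and fractions 35 to 42 as late (heavier) polysomes. Both genotypes and both fractions together made 4 groups of 2 libraries, and the early and late library of a number carry the same lysate name. Age, sex and the number of mice per lysate are not given in the sources used here.

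Odorant receptors are receptors with several membrane-spanning helices that couple to the G protein alpha subunit Golf in the cilia of olfactory neurons, and a mature neuron transcribes a single receptor gene from a single allele. Class I receptors sit in a single cluster around the beta-globin genes, are expressed mostly in the dorsal epithelium, and include receptors for carboxylic acids. Their coding sequence usually lies in a single exon, and short upstream exons supply the 5′ leader. A ribosome that scans a leader can start at an ATG upstream of the receptor's own start, and such upstream ATGs are known to lower initiation at the main reading frame.

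Some of the transcripts named below are shown here by the start of their coding sequence or by a window of their leader. They were read from GENCODE M21 transcripts on GRCm38, 5′ to 3′ on the strand of the gene. The first lines give the first 60 coding bases, with the start codon in capitals, of the members with the smallest adjusted p among those lower (Olfr672, chr7:104995760-105002029, minus strand, and Olfr669, chr7:104934240-104940477, plus strand) and higher (Olfr651, chr7:104550133-104554422, plus strand, and Olfr690, chr7:105328225-105334104, minus strand) in late polysomes.
Olfr672: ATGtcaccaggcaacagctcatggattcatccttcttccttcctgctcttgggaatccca
Olfr669: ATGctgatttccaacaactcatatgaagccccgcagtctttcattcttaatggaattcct
Olfr651: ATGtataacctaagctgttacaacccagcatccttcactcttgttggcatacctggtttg
Olfr690: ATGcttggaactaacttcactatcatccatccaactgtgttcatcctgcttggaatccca

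The next lines give 30 bases of the annotated leader around an upstream ATG, in capitals, for Olfr669 (141 nt before the coding start, in a leader of 386 nt with 6 upstream ATGs), Olfr672 (31 nt before it, leader of 347 nt with 6), Olfr689 (25 nt before it, leader of 162 nt with 5) and Olfr690 (102 nt before it, leader of 119 nt with 1). The annotated leader of Olfr651, 96 nt long, holds 0 ATGs. So does that of Olfr610, 73 nt long, although Olfr610 fell in late polysomes (log2 -1.04). These leaders are those of the longest coding GENCODE transcript. Other annotated transcripts have as few as 3 upstream ATGs for Olfr669, 1 for Olfr689 and 0 for Olfr690.
Olfr669 leader: gcctggtgcaggATGaggacccagcagaag
Olfr672 leader: agattccttcaaATGaatatacccatcaga
Olfr689 leader: ccgaagaggtagATGctgagaacaagacat
Olfr690 leader: agcccataccacATGtggaggaagaacttt

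Mex3a was checked first. Levels are in TPM, transcripts per 1000000, which corrects for transcript length. Its deposited level was 97.4 and 115.6 TPM (WT early), 93.2 and 95.6 (WT late), 13.9 and 19.8 (cKO early) and 11.1 and 13.8 (cKO late). The log2 difference of cKO from WT was -2.55 (adjusted p = 0.00459) in early and -2.80 (adjusted p = 0.0028) in late polysomes by limma. WT early replicate 2, at 115.6 TPM, carries the knockout genotype tag against its title and was kept as WT. Without WT early replicate 1 the early difference was -2.68 (adjusted p = 0.0791), with only the compared libraries fitted it was -2.55 (adjusted p = 0.0858), and without WT late replicate 1 or 2 the late one was -2.80 or -2.79 (adjusted p = 0.0916 and 0.0964). Depth inferred from the steps of the TPM values was 7776792 to 12771079 reads per library, of which 2106 to 5021 fell on class I receptors, fewest in cKO late replicate 2. All 13 markers of mature olfactory neurons were above 0 in every library. Their summed level, scaled between libraries by median ratios, was 10889 to 13315 TPM in early and 7646 to 9167 in late libraries. Abundant genes weigh most in this sum. Omp alone stood at 3789 to 5504 scaled TPM in early and 2304 to 2778 in late libraries. Of the 13 markers, 10 rose and 3 fell in late polysomes on the mean of genotypes (limma, adjusted p under 0.05). Over all tested genes 34.2% rose and 34.8% fell. The markers' median log2 difference was 0.48. The summed level of 9 sustentacular cell markers was 3112 to 4899 in early and 10674 to 11817 in late libraries.

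Class I transcripts were scarce and spread over many members. Their deposited TPM summed to 333 and 381 (WT early), 331 and 330 (WT late), 342 and 366 (cKO early) and 295 and 299 (cKO late). They made up 12.3% to 13.3% of all Olfr TPM after scaling. Per member, the mean scaled TPM over 8 libraries had a median of 2.34 and ran from 0.0292 (Olfr574, above 0 in 1 library) to 10.2 (Olfr640), against a median of 1.77 and a maximum of 30.3 for class II. Of the 124 members, 116 were above 0 in all 8 libraries and 12 reached a mean of 5. The median member rested on 181 inferred reads over the 8 libraries, and 92 members had at least 100 reads. The 108 members whose deposited TPM averaged at least 1 were tested (87.1%, against 74.1% of class II), and the other 16 were not. Within a group, the 2 libraries correlated at 0.818 to 0.855 across the 124 members on the log2 scale, a correlation across genes that share each library's depth.

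The 10 members with the highest mean level held 20.3% to 26.8% of class I TPM per library. Olfr640 led them, with 10.3 and 14.4 scaled TPM (WT early), 11.1 and 6.78 (WT late), 12.1 and 8.75 (cKO early) and 9.36 and 8.90 (cKO late). Olfr549 had 10.3 and 10.6, 8.54 and 8.93, 10.4 and 13.8, and 8.51 and 6.67 scaled TPM in the same order. Its 4 late values all lay below its 4 early values, whereas those of Olfr640 overlapped. Olfr544, a receptor for azelaic acid, had 7.38 and 7.20, 7.59 and 7.31, 7.44 and 8.23, and 7.58 and 4.61 scaled TPM, nearly flat apart from cKO late replicate 2. It did not pass the test of late against early (log2 -0.16, SE 0.15, adjusted p = 0.355), but without cKO late replicate 1 it did (log2 -0.31, adjusted p = 0.0452). The order of the leading members was not settled: the mean levels of Olfr640, Olfr549 and Olfr689 (10.2, 9.72 and 8.77) differed by less than the spread within WT early libraries of Olfr640 (12.4 ± 2.86, SD, n = 2). The order also depends on the lengths behind the TPM. Olfr640 led on 331 reads, with a length implied by the TPM steps of 1219.7 nt against 4009 nt in GENCODE. Olfr689 had 1768 reads, with 7548 nt implied against 5819 nt. Olfr544 shares 96.4% of its coding bases with Olfr545, and Olfr640 shares exon bases with Olfr643, so their reads could be split between genes.

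**Figure D1:**
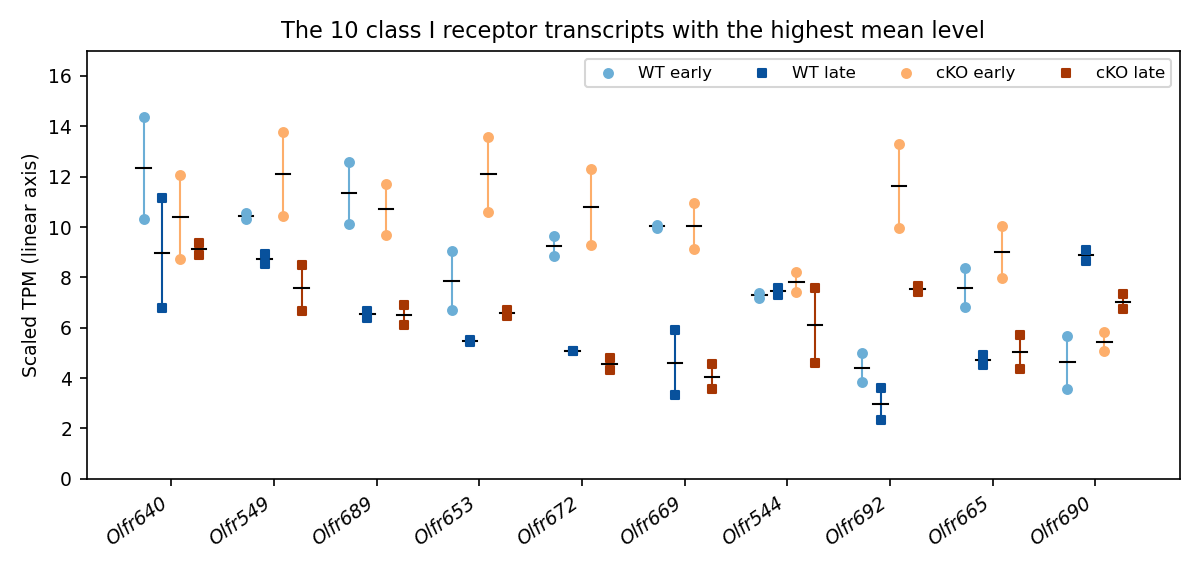
Scaled TPM (linear axis from 0) of the 10 class I receptors with the highest mean level. Points are single libraries, joined within each group of 2, black dashes are group means, circles are early and squares late polysomes, and blue marks WT and orange cKO. Olfr669 sits at 9.13 to 10.9 in early and at 3.33 to 5.90 in late libraries, and Olfr692 is higher in every cKO library than in any WT library of the same fraction.

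The first comparison asked which class I transcripts were richer in heavy or in light polysomes. On the mean of both genotypes, 10 members rose and 30 fell in late polysomes among the 108 tested (limma, Benjamini-Hochberg adjusted p under 0.05), against 34.2% of all 16097 tested genes higher and 34.8% lower. The members' shares were 9.26% higher and 27.8% lower. The shares are not at like precision: the median SE was 0.19 for class I, 0.19 for class II and 0.11 for all genes. The part of this in the lower shares was not tested. The median member changed by -0.24 on the log2 scale, against -0.21 for class II, of which 26 rose and 168 fell among 716 tested, and -0.01 for all genes. The median late-minus-early difference of the members was -0.14 and -0.22 in the WT lysates and -0.26 and -0.41 in the cKO lysates, below 0 in 4 of 4. The split depended on the scaling: quantile normalization gave 12 higher and 18 lower members, and unscaled TPM gave 12 and 25. The median of all genes was 0.0871 in unscaled TPM and -0.0144 after scaling. All 9 sustentacular markers rose in late polysomes, and their part in the receptors' change was not tested.

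**Figure D2:**
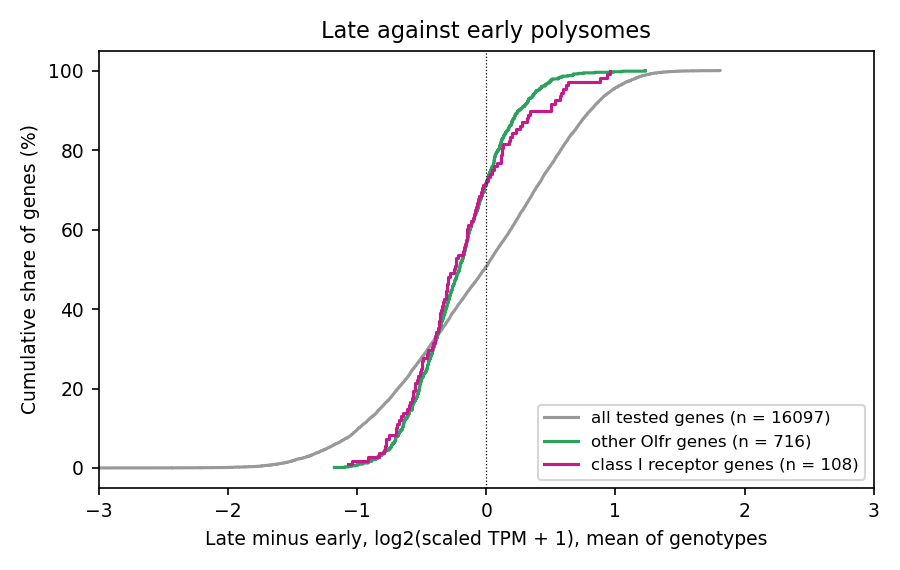
Cumulative share of genes (%) against the late-minus-early difference in log2(scaled TPM + 1), averaged over genotypes, for 108 class I receptors, 716 other Olfr genes and all 16097 tested genes. Both receptor curves lie left of 0 at their median (-0.24 and -0.21) and are narrower than the curve of all genes. The scale understates the change of low genes, such as most receptors.

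Olfr669, Olfr672 and Olfr610 had the lowest log2 differences, and the rule used to name falling members required late libraries clear of early ones. Some other falling members overlapped. Olfr605 (log2 -0.79) had 0.881 scaled TPM in cKO early replicate 1 and 1.09 in WT late replicate 2. Olfr669 had 9.97 and 10.1 scaled TPM (WT early), 3.33 and 5.90 (WT late), 9.13 and 10.9 (cKO early) and 4.55 and 3.57 (cKO late). Every late library was below every early one, and the difference was -1.07 on the log2 scale (SE 0.17, adjusted p = 0.000521, lower in 4 of 4 lysates). Olfr672 had 9.65 and 8.85, 5.07 and 5.09, 9.28 and 12.3, and 4.31 and 4.80 scaled TPM in the same order. Its groups did not overlap either (log2 -0.91, SE 0.12, adjusted p = 0.000217). Olfr610 went from 6.58 and 7.24 to 3.96 and 2.08 in WT, and from 6.41 and 6.36 to 3.26 and 1.92 in cKO libraries (log2 -1.04, SE 0.19, adjusted p = 0.00137). Its late libraries rested on 9 to 29 reads each and its early ones on 43 to 56.

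Olfr689 was the member with the most reads, 1768 over the 8 libraries. Its scaled TPM was 10.1 and 12.6 (WT early), 6.67 and 6.40 (WT late), 9.69 and 11.7 (cKO early) and 6.10 and 6.89 (cKO late) (log2 -0.67, SE 0.12, adjusted p = 0.000967). Olfr665 fell by 0.66 on the log2 scale (SE 0.14, adjusted p = 0.00259), from 6.81 to 10.1 scaled TPM in early to 4.38 to 5.73 in late libraries. Olfr653 fell by 0.61 (SE 0.13, adjusted p = 0.0029), with 6.71 and 9.03 (WT early), 5.42 and 5.52 (WT late), 10.6 and 13.6 (cKO early) and 6.48 and 6.72 (cKO late). Its late cKO libraries overlapped the lowest WT early one, but each lysate fell. Olfr549 fell by 0.42 (SE 0.12, adjusted p = 0.014), which did not hold without cKO early replicate 2 (log2 -0.33, adjusted p = 0.0527).

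Against this direction, 10 members rose. Olfr651 had 1.29 and 1.19 scaled TPM (WT early), 3.35 and 3.46 (WT late), 1.23 and 1.52 (cKO early) and 4.01 and 2.84 (cKO late) (log2 0.93, SE 0.16, adjusted p = 0.000966). All late libraries lay above all early ones, although the late ones held only 13 to 26 reads each and the early ones 9 to 10. Olfr690 rose from 5.68 and 3.58 to 8.64 and 9.10 in WT, and from 5.82 and 5.08 to 7.32 and 6.75 in cKO libraries (log2 0.58, SE 0.14, adjusted p = 0.00652). Olfr686 had 3.59 and 2.02 (WT early), 4.19 and 4.22 (WT late), 4.18 and 3.52 (cKO early) and 7.10 and 7.54 (cKO late) (log2 0.63, SE 0.16, adjusted p = 0.00732). The other members that rose were Olfr564, Olfr555, Olfr648, Olfr675, Olfr575, Olfr78 and Olfr570, by 0.50 to 0.96 on the log2 scale. Olfr675 is 96.6% identical to Olfr671 in its coding sequence, so its value is uncertain. The largest of these, Olfr564 (0.96, SE 0.32), had overlapping groups, with 0.511 to 1.62 scaled TPM in early and 1.35 to 4.95 in late libraries.

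Within each genotype fewer members passed. In WT, 3 rose and 10 fell, against 27.1% of all genes higher and 27.7% lower. In cKO, 2 rose and 20 fell, against 28.6% and 29.4%. Under quantile normalization 6 rose and 6 fell in WT and 7 rose and 12 fell in cKO, and in unscaled TPM the splits were 4 to 6 (WT) and 5 to 16 (cKO). By the naming rule the WT changes were those of Olfr690 (log2 0.84, SE 0.20, adjusted p = 0.00849), Olfr610 (-1.02, SE 0.27, adjusted p = 0.0131), Olfr669 (-1.01, SE 0.23, adjusted p = 0.00698), Olfr672 (-0.75, SE 0.17, adjusted p = 0.00642), Olfr689 (-0.71, SE 0.17, adjusted p = 0.00723) and Olfr665 (-0.58, SE 0.19, adjusted p = 0.0312). In cKO they were those of Olfr686 (0.78, SE 0.23, adjusted p = 0.0173), Olfr669 (-1.13, SE 0.23), Olfr672 (-1.08, SE 0.17), Olfr610 (-1.07, SE 0.27), Olfr598 (-1.03, SE 0.19) and Olfr599 (-0.92, SE 0.23), the last 5 with adjusted p from 0.00103 to 0.00972. Olfr598 is 98.1% identical to Olfr597 in its coding sequence and its value is uncertain. The WT count fell to 4 without WT early replicate 2, to 8 without WT late replicate 1 and to 5 without WT late replicate 2, and the cKO count fell to 7 without cKO early replicate 2 and to 14 without cKO late replicate 2. On the mean of genotypes the count fell from 40 to 26 without WT early replicate 2 and to 24 without cKO early replicate 2. Olfr610 lost its WT call without WT early replicate 2 (adjusted p = 0.0718) or WT late replicate 2 (adjusted p = 0.0905) and its cKO call without cKO late replicate 2 (adjusted p = 0.0639). Without WT early replicate 2, Olfr690 (0.56, adjusted p = 0.0602), Olfr689 (-0.57, adjusted p = 0.0596) and Olfr665 (-0.46, adjusted p = 0.171) were not past the threshold in WT. Olfr690 also lost its WT call without WT late replicate 2 (adjusted p = 0.051), and Olfr665 without WT late replicate 1 or 2 (adjusted p = 0.0779 and 0.13), without the filter on low values (0.057) and in unscaled TPM (0.0505). Olfr686 lost its cKO call without cKO early or late replicate 2 (adjusted p = 0.0978 and 0.0709), and so did Olfr599 (adjusted p = 0.057 and 0.0507).

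By their libraries alone, 8 of 108 members had all 4 late libraries above all 4 early ones and 22 had them all below. These shares, 7.41% and 20.4%, stood beside 31.4% and 31.1% of all tested genes, and 1.54% and 14.4% of class II receptors.

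Members with a known ligand or a known place beside the globin genes did not move together. Olfr78, a receptor for short-chain fatty acids that also serves outside the nose, had 1.25 and 1.40 scaled TPM (WT early), 2.31 and 3.12 (WT late), 1.38 and 1.74 (cKO early) and 1.92 and 2.91 (cKO late). Its late libraries all lay above its early ones, and it rose by 0.54 on the log2 scale (SE 0.18, adjusted p = 0.0257). This call was lost without WT early replicate 1 (adjusted p = 0.0635) or 2 (0.0516), WT late replicate 2 (0.0882), cKO early replicate 1 (0.0718) or cKO late replicate 2 (0.0696). Olfr78 also shares exon bases on the same strand with Olfr560. Olfr558, a neighbour that likewise senses short-chain fatty acids, ranged from 1.08 to 2.48 scaled TPM and did not pass (log2 0.12, SE 0.19, adjusted p = 0.616).

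Around the beta-globin genes, Olfr64 (log2 -0.53, SE 0.18, adjusted p = 0.0303), Olfr65 (-0.58, SE 0.20, adjusted p = 0.0291) and Olfr67 (-0.51, SE 0.17, adjusted p = 0.0225) fell in late polysomes. Olfr65 had 4.51 and 5.55 scaled TPM (WT early), 4.94 and 2.76 (WT late), 5.04 and 6.73 (cKO early) and 3.63 and 2.32 (cKO late), with overlap in WT. Each of these calls was lost without WT early replicate 2 (adjusted p = 0.0522 for Olfr64, 0.0885 for Olfr65 and 0.0699 for Olfr67). They were also lost without cKO early replicate 2 (0.0775, 0.0953 and 0.07) and without cKO late replicate 2 (0.0713, 0.0931 and 0.0594). Olfr64 and Olfr65 further lost theirs without WT late replicate 2 (0.0913 and 0.1), Olfr67 without WT late replicate 1 (0.0659), and Olfr64 without WT early replicate 1 (0.0794) or cKO early replicate 1 (0.0593). Under quantile normalization none of the 3 passed (0.118, 0.0527 and 0.0602), and in unscaled TPM Olfr64 (0.0521) and Olfr65 (0.051) did not. Olfr65 also missed the threshold without the filter on low values (0.0527). Olfr66 (-0.23, SE 0.18), Olfr68 (0.01, SE 0.16) and Olfr69 (-0.11, SE 0.22) did not pass, with adjusted p of 0.278, 0.944 and 0.665. Olfr68 and Olfr69 are 97.7% identical in their coding sequence, and the sign of their small differences turned under other settings.

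The far end of the cluster showed opposite differences within a short distance. Olfr689 fell, its neighbour Olfr690 rose, and Olfr691, at 2.24 to 3.21 scaled TPM, did not pass (log2 -0.16, SE 0.15, adjusted p = 0.346). Olfr692 fell by 0.51 on the log2 scale (SE 0.16, adjusted p = 0.0187). The Olfr692 call did not hold without WT early replicate 2 (adjusted p = 0.0681), WT late replicate 1 (0.0638) or cKO early replicate 1 (0.0706), or in unscaled TPM (0.05001).

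Farther inside the cluster, the stretch from Olfr664 to Olfr672 (chr7:104733385-105002029), picked after its values were seen, held 9 tested members. Of these, 6 fell and 0 rose, with a median of -0.69 and a range of -1.07 to -0.04 on the log2 scale. Over all 16097 tested genes 34.8% fell and 34.2% rose, and over all tested members 27.8% and 9.26%. Among the 6, Olfr664 is annotated as a polymorphic pseudogene and rested on 0 to 11 reads per library. Its late-minus-early difference was above 0 (0.54) in WT lysate 2. Coding identity between pairs of members of this stretch ran from 69.9% to 96.9%. Olfr666 and Olfr668, the most alike, had differences of -0.39 and -0.69. Of the 124 members, 25 had another receptor at least 95% identical over the coding sequence and 10 shared exon bases with another gene, and reads of these could be assigned to either.

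**Figure D3:**
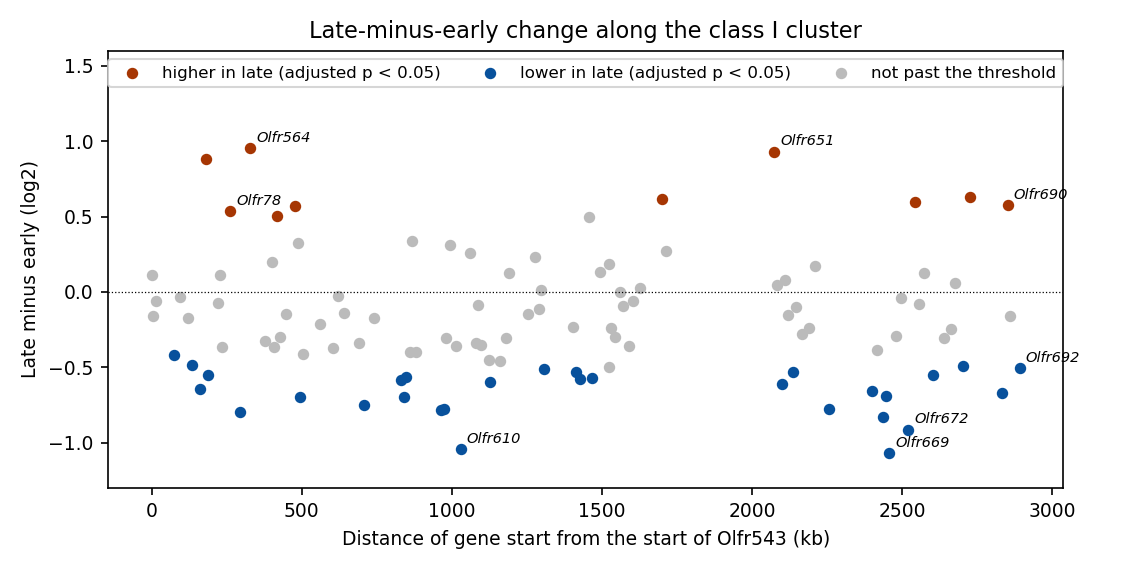
Late-minus-early difference (log2, mean of genotypes) of each of the 108 tested members against the distance of its start from that of Olfr543 (kb). Members past adjusted p 0.05 are brown where higher and blue where lower, others grey. Blue points occur along the whole cluster, with Olfr669 (-1.07) and Olfr672 (-0.91) among the lowest, and brown points such as Olfr690 (0.58) lie beside blue ones.

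The members' coding sequences were nearly equal in length, from 918 to 1038 nt with a median of 948, but their annotated leaders were not. Of the members, 112 had an annotated leader of at least 20 nt, with a median of 216.5 nt and a median of 5 upstream ATGs (at most 38). The motif counted was ATG on the transcript strand of the longest coding GENCODE transcript, overlaps allowed. Its relation to gradient position was looked for after the data had been seen. Across the 103 members with a leader and a test, Spearman's rho between the number of upstream ATGs and the late-minus-early difference was -0.407. It was -0.21 and -0.305 in the WT lysates and -0.277 and -0.432 in the cKO lysates. These are descriptions across genes of the same libraries, and genes are not independent replicates.

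The 11 members with 0 upstream ATGs had a median difference of 0.50 on the log2 scale, and 10 of them were above 0. Of these 11, Olfr78, Olfr570, Olfr648, Olfr651 and Olfr686 rose and Olfr610 fell. Their median was 0.24 and 0.46 in the WT lysates and 0.48 and 0.51 in the cKO lysates. The 20 members with 1 to 2 upstream ATGs had a median of -0.12, with 1 that rose (Olfr690) and 1 that fell. The 29 with 3 to 5 had a median of -0.35 (2 rose, 10 fell), the 22 with 6 to 9 a median of -0.37 (0 rose, 10 fell), and the 21 with 10 or more a median of -0.31 (0 rose, 7 fell). Over all 16097 tested genes 34.2% rose and 34.8% fell. The class medians differed most between members with 0 and members with 3 or more upstream ATGs. Members within a class also differed widely, from -1.04 to 0.93 with 0 and from -1.07 to 0.17 with 6 to 9. Without the 11 members of the first class, the medians ran only from -0.12 to -0.37.

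Class II receptors gave a rho of -0.385 over 699 genes. Their medians were 0.07 with 0 upstream ATGs (42 genes), 0.01 with 1 to 2, -0.16 with 3 to 5, -0.29 with 6 to 9 and -0.34 with 10 or more (236 genes). Of the 42 class II genes with 0 upstream ATGs, 2 rose and 2 fell, and of the 236 with 10 or more, 0 rose and 74 fell. The median of those 42 was 0.34 and -0.09 in the WT lysates and 0.13 and 0.02 in the cKO lysates. Whether the 2 classes differ was not tested. Among class I members, leader length gave a rho of -0.265, upstream ATGs per 100 nt of leader -0.38, exon number -0.242, coding length -0.044 and the GC share of the coding sequence 0.091. Counting the transcript with the fewest upstream ATGs instead of the longest gave -0.262, and leaving out members with a near copy or shared exon bases gave -0.357 over 75 members. The authors' transcript models are not given in the sources used here, and the lengths that the TPM steps imply differed from the annotated ones. For 121 members the implied length was 0.133 to 3.52 times that of the GENCODE transcript, with a median of 1.28, on a scale set by 17895 genes outside the receptor family. Among members within 1.1-fold of that median ratio the rho was -0.495 (51 members), and among the others -0.322 (52 members). The leaders of single members in these cells, Olfr692 with the largest ratio among them, may therefore differ from the annotated ones.

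**Figure D4:**
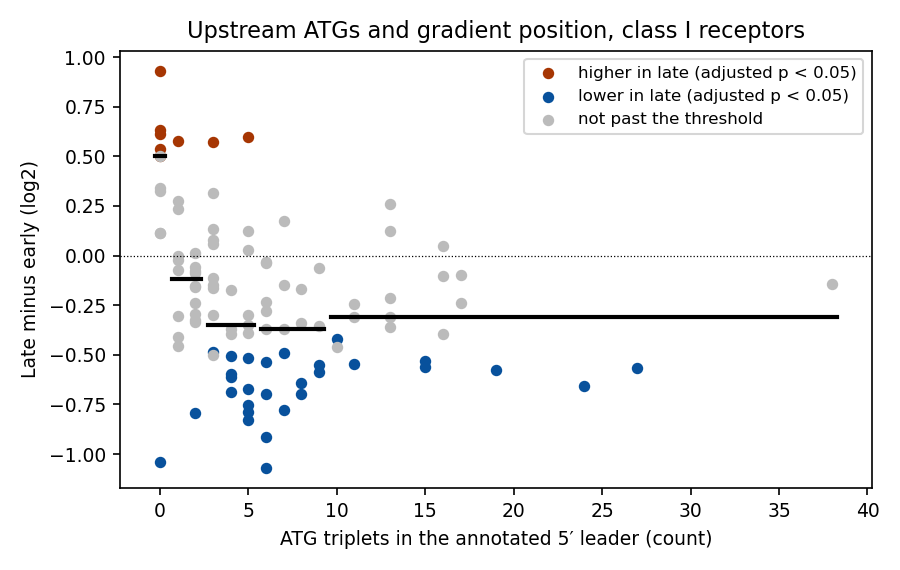
Late-minus-early difference (log2, mean of genotypes) against the number of ATG triplets in the annotated 5′ leader for 103 class I receptors. Black bars are medians over 0, 1 to 2, 3 to 5, 6 to 9, and 10 or more ATGs. Points past adjusted p 0.05 are brown where higher and blue where lower in late polysomes. The median is 0.50 with 0 upstream ATGs and lies between -0.12 and -0.37 in the other classes.

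The second question was whether class I transcripts on polysomes differed when Mex3a was deleted. In bulk tissue, fewer cells of a type and less RNA per cell cannot be told apart. No member passed in early or late polysomes, on lysate means or in the interaction of genotype and fraction (limma), where 0.0435%, 0.0124%, 0.00621% and 0.00621% of all 16097 genes passed. At an unadjusted p under 0.05 the members numbered 4 in early (6.63% of all genes), 7 in late (9.32%), 10 on lysate means (11.3%) and 3 in the interaction (2.80%). As shares of the 108 tested these were 3.70%, 6.48%, 9.26% and 2.78%, and class II had 14.8%, 15.9%, 19.4% and 4.47%. The voom test on inferred reads called 0 members in early, late and interaction (7, 8 and 4 at an unadjusted p under 0.05) and 1 on lysate means (11). Of 16085 genes it called 0.0746%, 0.0933%, 0% and 0.361%, and 1235, 1430, 396 and 2445 were under an unadjusted p of 0.05. The median member differed by -0.01 in early polysomes, -0.11 in late polysomes and -0.04 on lysate means, beside 0.02, -0.11 and -0.03 for class II. The standard error of a single member had a median of 0.27 in either fraction and 0.19 on lysate means, so small changes of single members were not detectable at this depth with 2 libraries a group.

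Olfr692, a member also known from sensory neurons of the vomeronasal organ, had the smallest p among members in each fraction and on lysate means. It had 3.86 and 4.98 scaled TPM in WT early and 13.3 and 9.97 in cKO early libraries, and 2.34 and 3.62 in WT late and 7.42 and 7.64 in cKO late libraries. Every cKO library was above every WT library. The log2 difference was 1.22 in early (SE 0.22, unadjusted p = 0.000506, adjusted p = 0.231), 1.12 in late (SE 0.22, unadjusted p = 0.000871, adjusted p = 0.286) and 1.17 on lysate means (SE 0.17, unadjusted p = 0.000527, adjusted p = 0.197). It did not pass by limma in any of them, and voom on lysate sums of inferred reads called it (log2 1.41, adjusted p = 0.0321). Its reads numbered 32 to 72 in WT and 67 to 186 in cKO libraries. Of 5 vomeronasal markers 4 were in the table. Their summed scaled level was 559 and 630 (WT early) against 593 and 691.7 (cKO early), and 398 and 408 (WT late) against 411 and 451 (cKO late), nearly all of it from the G protein subunits Gnai2 and Gnao1, which other cells also express. The receptor genes among them, Vmn2r1 and Vmn2r2, were at or below 0.491 scaled TPM in every library. The part of vomeronasal tissue in the Olfr692 difference was not tested.

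**Figure D5:**
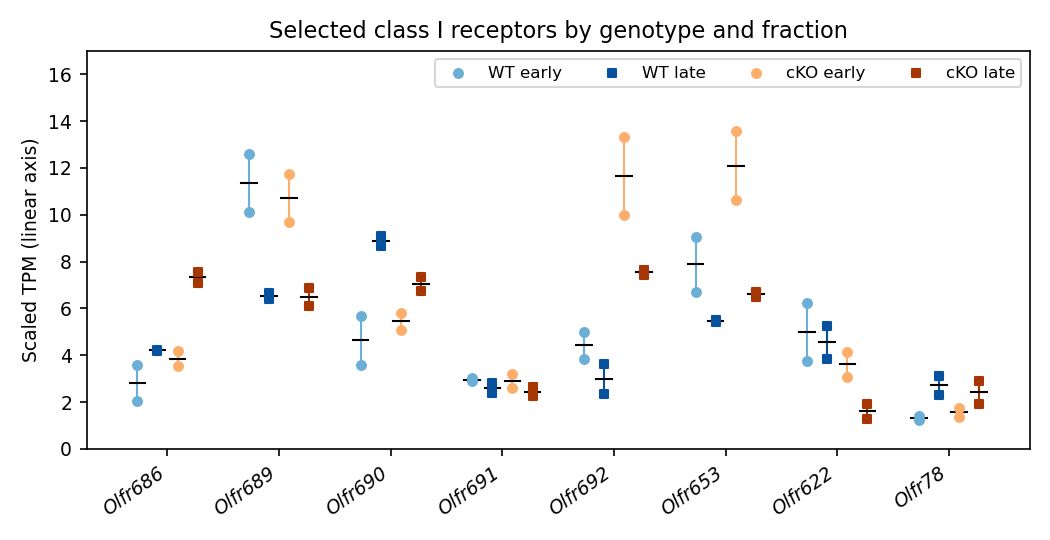
Scaled TPM (linear axis from 0) of 8 class I receptors, 5 from the far end of the cluster (Olfr686 to Olfr692) and 3 others, with points, joining lines and dashes as single libraries, groups of 2 and group means. Olfr692 is at 2.34 to 4.98 in WT and 7.42 to 13.3 in cKO libraries, while Olfr689, Olfr691 and Olfr78 have overlapping genotypes.

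Other members with a mean scaled TPM of at least 5 followed by p-value, and none of them passed. Olfr653 was higher in cKO early (10.6 and 13.6) than in WT early libraries (6.71 and 9.03), by 0.56 on the log2 scale (SE 0.18, adjusted p = 0.694), and by 0.40 on lysate means (SE 0.14, adjusted p = 0.403). Olfr598 differed by 0.51 in early (SE 0.19, adjusted p = 0.713) and by -0.41 in late polysomes (SE 0.19, adjusted p = 0.544), which made it the first by p in the interaction among members with a mean of at least 5 (log2 -0.92, SE 0.26, unadjusted p = 0.00776, adjusted p = 1.00). Olfr690 followed in late polysomes (-0.30, SE 0.20, adjusted p = 0.675) and in the interaction (-0.52, SE 0.29), as did Olfr665 on lysate means (0.15, SE 0.12, adjusted p = 0.664) and Olfr549 in the interaction (-0.37, SE 0.24). Olfr622, chosen after its values were seen, had 5.25 and 3.85 scaled TPM in WT late and 1.93 and 1.26 in cKO late libraries, without overlap (log2 -1.10, SE 0.28, adjusted p = 0.355). By libraries alone, 19 members were higher and 21 lower in every cKO than in every WT early library (17.6% and 19.4%), against 19.6% and 17.5% of all genes. In late polysomes 12 were higher and 30 lower (11.1% and 27.8%), against 20.1% and 20.6% of all genes and 16.8% and 33.8% of class II receptors.

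The genes that act with the receptors mostly changed between fractions, as did 68.9% of all tested genes. Of 17 regulators of receptor choice, 9 rose and 7 fell in late polysomes on the mean of genotypes. Bcl11b, a transcription factor that favours class II over class I choice, rose by 0.81 on the log2 scale (SE 0.08), as did the demethylase gene Kdm1a (0.87, SE 0.08). Lhx2, which encodes a factor bound at receptor enhancers, fell by 0.81 (SE 0.08), and Atf5 and Ddit3, encoding stress-response transcription factors, fell by 0.94 (SE 0.12) and 1.13 (SE 0.10). Of 8 genes for receptor export and folding, 5 rose, among them Rtp1 (0.48, SE 0.08) and Rtp2 (0.47, SE 0.07), which carry receptors to the surface, and 2 fell (Reep1 and Reep6). Of 12 transduction genes, 9 rose, including Adcy3 (1.58, SE 0.12), the cyclase of the cascade, and 3 fell, namely Omp, Gnb1 and Gng13 (-1.73, SE 0.14). Of 8 genes of dorsal and ventral zones 6 rose and 0 fell, including Nqo1 (1.01, SE 0.07), a marker of the dorsal zone that holds most class I neurons, and Ncam2 (0.51, SE 0.13), a marker of the ventral zones. In genotype comparisons and in the interaction, 0 genes of these 4 lists passed by limma. Nqo1 stood at 159 and 159 scaled TPM (WT early), 316 and 349 (WT late), 168 and 154 (cKO early) and 320 and 309 (cKO late). Its genotypes differed by -0.03 on lysate means (SE 0.07). Ncam2 differed by -0.61 there (SE 0.15, limma, unadjusted p = 0.00651, adjusted p = 0.364). It had 73.4 and 62.4, 107 and 87.0, 53.2 and 36.3, and 67.8 and 58.5 scaled TPM in the same order. Nrp2, another zone gene, differed by -0.19 (SE 0.08, adjusted p = 0.442). The median of the 8 zone genes was -0.06. Whether zone content differed between genotypes was not tested.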

How the data were processed

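Polysome RNA of 8 libraries was analysed, with groups and replicate numbers from the sample titles. The authors deposited 1 table that lists 21765 gene symbols in TPM, whose 8 library columns each sum to 1000000. The submitters' processing notes name FastQC, cutadapt, STAR, DESeq2 and mm10, and the step from reads to TPM and the annotation are not given in the sources used here. The Cre line is not reported here. TPM was scaled by median ratios and log2(scaled TPM + 1) was fitted with limma 3.58.1 in R 4.3.3 over 4 groups with a mean-variance trend. Two-sided p-values were adjusted by the Benjamini-Hochberg method over 16097 genes, those whose deposited TPM averaged at least 1. Fold changes on this scale understate the change of low genes. Genotype was also fitted on the mean log2 value of each lysate. Nothing says that lysates came from separate animals, so p-values measure the spread between libraries.

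Whole reads were inferred from the steps of the deposited TPM values (100% of 19783 genes within a tolerance of 0.001) and tested with voom as an alternative. The test and the read inference were tested on simulated data. Leaders, positions and coding sequences came from GENCODE M21, which held all 124 members, and identities from blastn 2.17.0 over at least 80% of the coding sequence. Named were the 10 members with the highest mean, per comparison up to 5 rising and 5 falling members past the threshold with a mean of at least 5 in a compared group and no overlap (otherwise the 3 smallest p among members with a mean of at least 5 over all libraries), and members with known roles. Other names were chosen after their values were seen. Members, lists and tests were chosen with earlier results of these data known. Deviations of the early and late library of a lysate from their group means correlated at 0.0865 in WT and 0.0503 in cKO, and they pair by lysate name. Same-numbered WT and cKO libraries correlated at 0.332 (early) and 0.143 (late), but no label says that a number marks a shared batch. The alternatives were pseudocounts, filters, scalings, no trend, only the libraries compared, a replicate block, voom and leaving out each library. Figures were drawn with matplotlib 3.10.9.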

Additional observations from a re-analysis of the deposited data

How the results depend on the processing

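Over 1122 recomputed values, 1025 were graded the same. A test was so graded if it kept its direction and its side of the threshold, including tests that stayed short of it. A count had to stay within a fixed fold range, and a median or rho to move by less than the spread between lysates. Of the others, 53 tests lost their call, 6 gained one, 25 counts, medians or rho values moved further, and 13 values changed sign. With a mean TPM of at least 5, 12 members were tested and 5 passed in WT, 8 in cKO and 9 on the mean of genotypes, against 13, 22 and 40 (66.5%, 68.5% and 78.7% of all genes passed). Without the mean-variance trend 21 passed in WT and 35 in cKO (53.8% and 57.5% of all genes). Voom on inferred reads gave 20 in WT and 1 on lysate means (58.2% and 0.361% of all genes). Leaving out single libraries gave 4 to 17 members in WT, 7 to 25 in cKO and 24 to 40 on the mean of genotypes, where a group left with 1 library was taken to vary like the others. The cause of these shifts was not tested, apart from the fewer members or libraries. With the replicate block, which pairs libraries by number, 12 members passed in WT, 22 in cKO and 37 on the mean. Of the named calls, Olfr65 (adjusted p = 0.0531 on the mean) and Olfr665 (0.0589 in WT) were lost in the block.

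Medians near 0 changed sign. That of cKO against WT in early polysomes was 0.2145 with a mean TPM of at least 5, 0.0539 without WT early replicate 2 and 0.0789 without cKO early replicate 1, over a range of -0.0391 to 0.0789 when single libraries were left out. On lysate means it was 0.0139 with a mean TPM of at least 5, and in the interaction 1e-04 without WT early replicate 1 (-0.1594 to 1e-04 over single libraries left out). Small late-minus-early differences turned too. Olfr69 reached 0.0329 under quantile normalization and 0.0035, 0.0478 and 0.0431 without WT early replicate 1, cKO early replicate 2 and cKO late replicate 2 (lowest without 1 library -0.2794). Olfr68 reached -0.0565, -0.1123 and -0.0044 without WT late replicate 2, cKO early replicate 1 and cKO late replicate 1 (highest without 1 library 0.137), and Olfr558 -0.0357 without cKO early replicate 1 (highest without 1 library 0.2646). Under quantile normalization the late-minus-early median of the members was -0.04 in WT, -0.11 in cKO and -0.11 on the mean. The rho with upstream ATGs was -0.703 with a mean TPM of at least 5, over only the 12 members tested there, against 103 for the main value of -0.407.

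The median member had 181 inferred reads over 8 libraries and each group 2 libraries, and the part of depth in single members' calls was not tested.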
